A study of Rattus norvegicus with 4 samples.

Results

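The insulin-like growth factor (IGF) system was followed in cultured neonatal rat ovaries through 10 genes: the ligands Igf1 and Igf2, the receptors Igf1r, Igf2r and Insr, and the binding proteins Igfbp2, Igfbp3, Igfbp4, Igfbp5 and Igfbp6. A probe set, the group of array probes that reports a transcript, was taken when the platform annotation gave it exactly 1 of these symbols. That gave 24 probe sets for all 10 genes, out of 14217 genes with a symbol of their own on the array. Whole ovaries of 4-day-old Rattus norvegicus pups had been kept for 2 days as organ cultures on floating filters, with 2 control samples that received no factor and 2 samples given GDNF, the glial cell line-derived neurotrophic factor, at a dose that the labels do not give. Each sample was RNA from 6 to 10 pooled ovaries on 1 Affymetrix array. Strain is not given, and nothing says whether the samples came from separate litters or cultures, so p-values cover only the spread among these 4 samples, part of which may be technical. Both groups were in the same medium with bovine serum albumin, albumax, ascorbic acid, transferrin and antibiotics. That medium also held 200 ng/ml insulin, so a ligand of this system was present in every sample, controls included.

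IGF1 and IGF2 act through the receptor tyrosine kinase encoded by Igf1r, while the product of Igf2r binds IGF2 and carries it to lysosomes without signalling as a kinase. Insulin acts through the product of Insr and, at high concentration, also through the IGF1 receptor. The binding proteins hold the ligands, and proteases release them. In the rodent ovary the system is known for IGF1 made by granulosa cells, which supports follicle growth, and for binding proteins that mark different follicle stages and the tissue around them.

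The binding protein genes carried the clearest differences between samples, so the promoter windows of 4 of them are shown, to let these genes be compared at the sequence level. All 10 genes matched RefSeq promoters of build GRCr8, each window running from 250 bases before to 50 bases after a gene's start. The window of Igfbp2 is chr9:81864561-81864860 on the plus strand and that of Igfbp5 is chr9:81914138-81914437 on the minus strand. In that assembly 0 other RefSeq genes had a listed start coordinate between those of Igfbp2 and Igfbp5, compared without regard to strand. The window of Igfbp3 is chr14:86277895-86278194 on the minus strand and that of Igfbp6 is chr7:135154669-135154968 on the plus strand. Capitals mark matches, on either strand, to a TATA box searched as TATANA, a GC box searched as GGGCGG or a CCAAT box searched as CCAAT.
Igfbp2: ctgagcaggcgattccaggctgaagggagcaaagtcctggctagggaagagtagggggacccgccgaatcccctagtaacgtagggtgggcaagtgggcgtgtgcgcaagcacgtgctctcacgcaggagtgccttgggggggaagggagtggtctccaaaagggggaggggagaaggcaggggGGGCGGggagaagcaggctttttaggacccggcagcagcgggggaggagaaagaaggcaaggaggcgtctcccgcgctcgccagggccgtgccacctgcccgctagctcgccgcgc
Igfbp5: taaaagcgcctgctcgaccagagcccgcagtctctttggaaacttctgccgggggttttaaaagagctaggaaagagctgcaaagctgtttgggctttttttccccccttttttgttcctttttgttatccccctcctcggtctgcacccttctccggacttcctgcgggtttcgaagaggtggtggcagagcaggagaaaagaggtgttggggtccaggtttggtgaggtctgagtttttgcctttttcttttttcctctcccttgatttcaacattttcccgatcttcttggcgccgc
Igfbp3: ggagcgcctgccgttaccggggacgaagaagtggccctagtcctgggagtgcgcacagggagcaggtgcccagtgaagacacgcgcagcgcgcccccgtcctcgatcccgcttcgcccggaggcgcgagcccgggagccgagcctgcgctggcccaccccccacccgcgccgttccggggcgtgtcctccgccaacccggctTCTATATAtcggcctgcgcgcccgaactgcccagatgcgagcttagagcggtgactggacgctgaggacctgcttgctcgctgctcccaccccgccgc
Igfbp6: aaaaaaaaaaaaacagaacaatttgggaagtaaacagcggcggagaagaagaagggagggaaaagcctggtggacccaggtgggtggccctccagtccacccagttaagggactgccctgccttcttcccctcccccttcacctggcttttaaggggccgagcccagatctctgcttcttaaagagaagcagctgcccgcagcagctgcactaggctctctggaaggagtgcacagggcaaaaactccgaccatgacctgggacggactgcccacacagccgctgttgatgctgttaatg
Igfbp2 had 1 GC box match and Igfbp3 had 2 overlapping TATA box matches. The windows of Igfbp5 and Igfbp6 held 0 matches to these letters. Over all 33469 promoter windows of this length, 26.5% held the TATA box letters, 33.1% the GC box letters and 37.5% the CCAAT letters. The share of G and C was 66.7% in the Igfbp2 window, 71.7% in Igfbp3, 55.3% in Igfbp6 and 50.7% in Igfbp5, against a median of 51.7% over all windows. A match is a description of the sequence and the expression data do not test it.

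Defining genes of the ovary were measured on all 4 arrays. The granulosa cell gene Foxl2 had signals of 591 to 690.2 and the oocyte gene Gdf9 545 to 1000.5. Of 7 theca and steroidogenic markers measured, 5 passed the signal filter of 21.4 described below, and Cyp11a1 and Insl3 did not. Array medians were 36.7 to 41.1. The 3' over 5' ratio of the control probe sets, which falls when the labelled RNA reaches further toward the 5' end, was, for Actb, 3.76 and 3.34 in control (replicate 1, then 2) against 2.62 and 3.61 with GDNF. These are whole ovaries, so fewer cells of a type and less RNA per cell cannot be told apart. Signals are compared between samples for 1 probe set at a time and never between probe sets, whose brightness depends on their own probes.

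Of the 24 probe sets, 20 passed the filter, which kept probe sets whose mean log2(signal + 1) was at or above the 40th percentile, and they covered all 10 genes. GDNF was compared with control by limma across 18625 probe sets, and a log2 fold change is GDNF minus control on the log2(signal + 1) scale. Counts of genes with a higher or lower mean are on that scale too. None of the 20 IGF system probe sets passed an adjusted p of 0.05, and over all probe sets the share called was 0%. At an unadjusted p under 0.05 there were 2 of 20, where the share over all probe sets was 2.73%. The groups did not overlap in 4 of 20, with 1 higher and 3 lower in GDNF, against 30% of all probe sets (13.4% higher and 16.6% lower). Of the 20, 9 had a log2 fold change above 0 and 11 below, with a median of -0.04 for the 20 and -0.01 for all probe sets. The median size of the change, whatever its direction, was 0.10 for the 20 and 0.12 for all. For 13 of 20 the whole 95% interval of the difference lay within 1.5-fold in either direction. No share over all probe sets is given for that count, so it does not set the system apart.

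**Figure D1:**
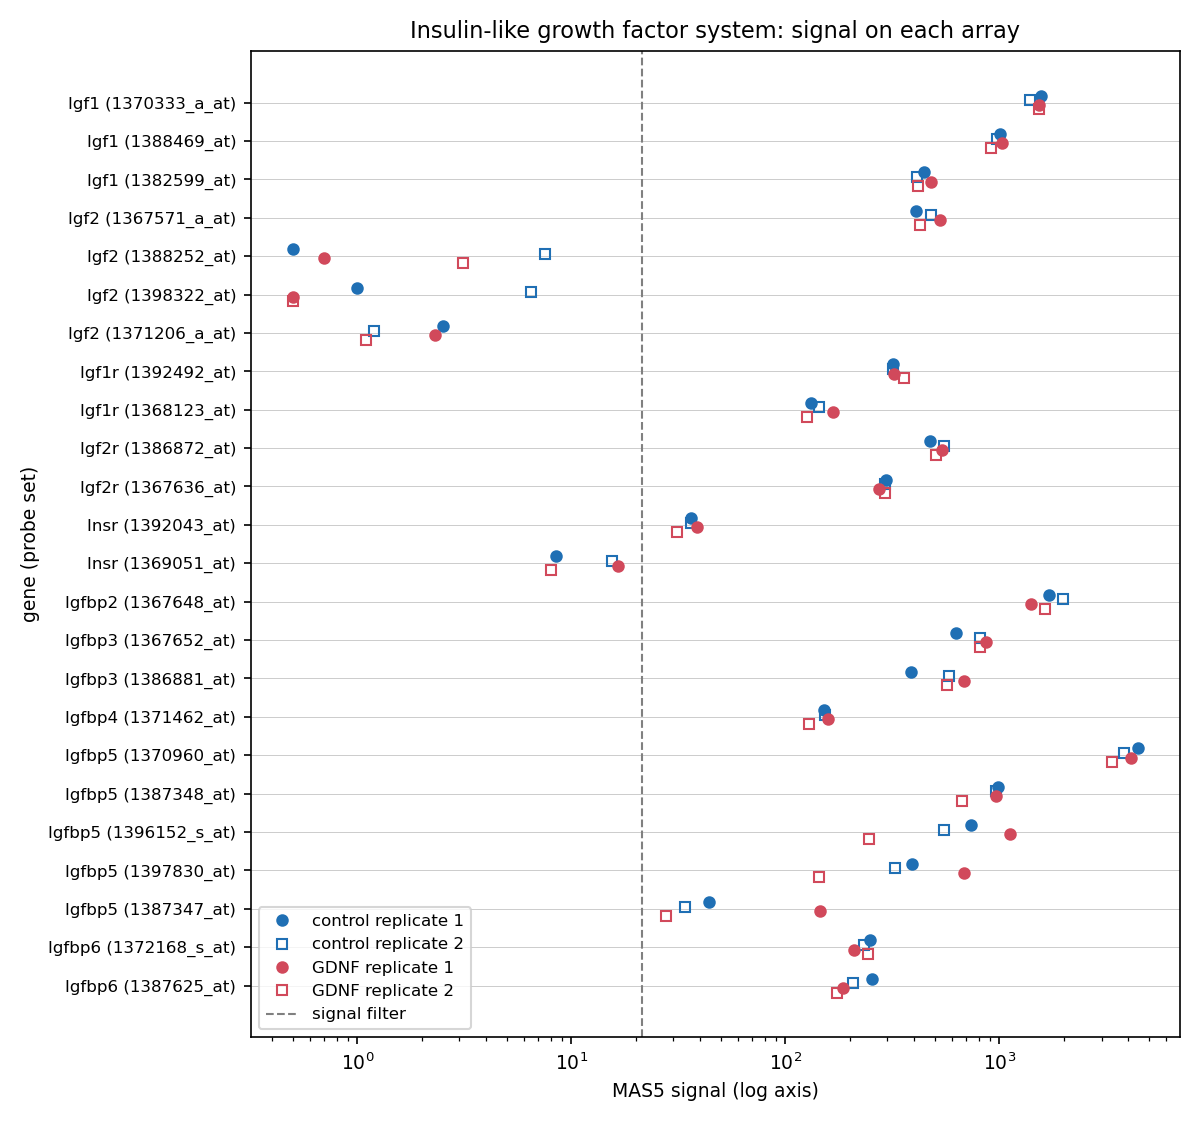
Signal of each of the 24 IGF system probe sets on each array (log axis), with control in blue, GDNF in red, replicate 1 filled and replicate 2 open, and the signal filter of 21.4 as a dashed line. In the ligand and receptor probe sets above the line the groups overlap or nearly touch. In 3 of the 5 Igfbp5 probe sets the 2 GDNF arrays lie far apart, at opposite ends. They are also at opposite ends, but closer together, in Igf1 (1388469_at), Igf1r (1368123_at), Insr (1392043_at) and Igfbp4. Positions along the axis can be compared within a probe set only.

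Igf1, the growth factor that granulosa cells of growing follicles make in rodents, was measured by 3 probe sets that all gave the same picture. The brightest (1370333_a_at) had 1562 in control replicate 1 and 1395 in control replicate 2, against 1528.5 and 1528.4 with GDNF. The GDNF values lay between the control values. Its log2 fold change was 0.05 (SE 0.10, 95% interval -0.19 to 0.29). The second (1388469_at) had 1007 and 971 in control and 1025 and 916 with GDNF (-0.03, SE 0.10), and the third (1382599_at) had 443 and 412 in control and 480.1 and 418 with GDNF (0.07, SE 0.12). In each of them the groups overlapped and the direction turned when 1 sample was left out, so no direction can be given for Igf1 at differences this small.

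Igf2, the fetal ligand expressed from the paternal allele in most tissues, had 1 probe set with a clear signal. That probe set (1367571_a_at) had 407.5 and 479 in control and 528 and 428 with GDNF, with overlap. The log2 fold change was 0.10 (SE 0.14, 95% interval -0.24 to 0.45), and it turned to -0.05 without GDNF replicate 1. The other 3 Igf2 probe sets were at the floor of the array, between 0.5 and 7.5 on all 4 arrays, and below the filter. The Igf2 comparison therefore rests on 1 of 4 probe sets. H19, the noncoding transcript that shares Igf2's imprinted region and is expressed from the maternal allele, had 990.5 and 1034 in control and 1191.5 and 1052 with GDNF (0.15, SE 0.11). These groups did not overlap, by a margin smaller than the range of either group.

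The receptors differed little between the groups. Igf1r, the signalling receptor, had 317 and 319 in control and 323 and 359 with GDNF in its brighter probe set (1392492_at). The groups did not overlap, but GDNF replicate 1 lay within 4 signal units of control replicate 2. The log2 fold change was 0.10 (SE 0.12, 95% interval -0.18 to 0.37). In the dimmer probe set (1368123_at) the samples overlapped, with 131 and 144 in control and 166 and 126 with GDNF, at the extremes of the range (0.07, SE 0.18).

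Igf2r, the clearance receptor for IGF2, had 475 and 552 in control and 542 and 504 with GDNF (1386872_at, 0.03, SE 0.12). Its other probe set (1367636_at) had 294.5 and 292 in control and 274.5 and 293 with GDNF (-0.05, SE 0.12). Both overlapped, and their intervals (-0.25 to 0.31 and -0.32 to 0.22) lay on both sides of 0. Insr, the insulin receptor, was dim throughout. Its brighter probe set (1392043_at) had 36.3 and 36.1 in control and 38.8 and 31.1 with GDNF (-0.06, SE 0.25), so the GDNF samples lay on both sides of the controls. The other (1369051_at) had 8.0 to 16.6 and was below the filter.

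Igfbp2, a binding protein that holds both ligands and, in the rat ovary, is known from the theca and interstitial tissue, had the lowest p of the system. Its 1 probe set (1367648_at) had 1712 and 1983 in control (replicate 1, then 2) against 1398 and 1631 with GDNF. Both GDNF samples lay below both controls, and the means were 1848 ± 192 and 1514 ± 165 (SD, n = 2 each), a ratio of 0.82. The log2 fold change was -0.29 (SE 0.12, 95% interval -0.57 to -0.0015), with a limma unadjusted p of 0.0491 and an adjusted p of 0.999, so it did not pass. Dropping 1 sample at a time gave values from -0.40 to -0.18.

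Igfbp6, a binding protein with a preference for IGF2, had 2 probe sets that differed in clarity. In the dimmer (1387625_at) the signals were 255 and 208 in control and 186.5 and 175 with GDNF, with no overlap and a ratio of 0.78. The log2 fold change was -0.35 (SE 0.15), with a limma unadjusted p of 0.0496 and an adjusted p of 0.999. In the brighter (1372168_s_at) the samples overlapped, at 248 and 233 in control and 209 and 242 with GDNF (-0.10, SE 0.13), and the difference was 0.0096 without GDNF replicate 1.

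Surface epithelium and mesothelium markers had lower means with GDNF, as did Igfbp2 and Igfbp6, and other marker lists leaned the same way. Of 10 listed markers 8 were measured and tested, and none was called. All 8 had a log2 fold change below 0, against 51.5% of all probe sets, and 4 were lower without overlap, against 16.6%. Their summed signal was 8279.5 and 7202 in control (replicate 1, then 2) and 6805 and 6302 with GDNF. Replicate 1 was thus the higher in each group, where for Igfbp2 it was the lower. For Igfbp6 replicate 1 was the higher in each group in 1387625_at, and in control only in 1372168_s_at. Smooth muscle markers had a lower mean for 5 of 6 and summed to 414 to 442 in control and 340.3 to 350 in GDNF samples. The stroma list had 3 higher and 5 lower, with sums of 16002 to 17139 in control and 16126 to 16498 with GDNF. Endothelium markers had a lower mean for all 5 tested and leukocyte markers for 5 of 7. Theca and steroidogenic markers had a lower mean for 2 of 5 and granulosa markers for 3 of 10. The part of any of these cell types in the values of Igfbp2 and Igfbp6 was not tested.

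**Figure D2:**
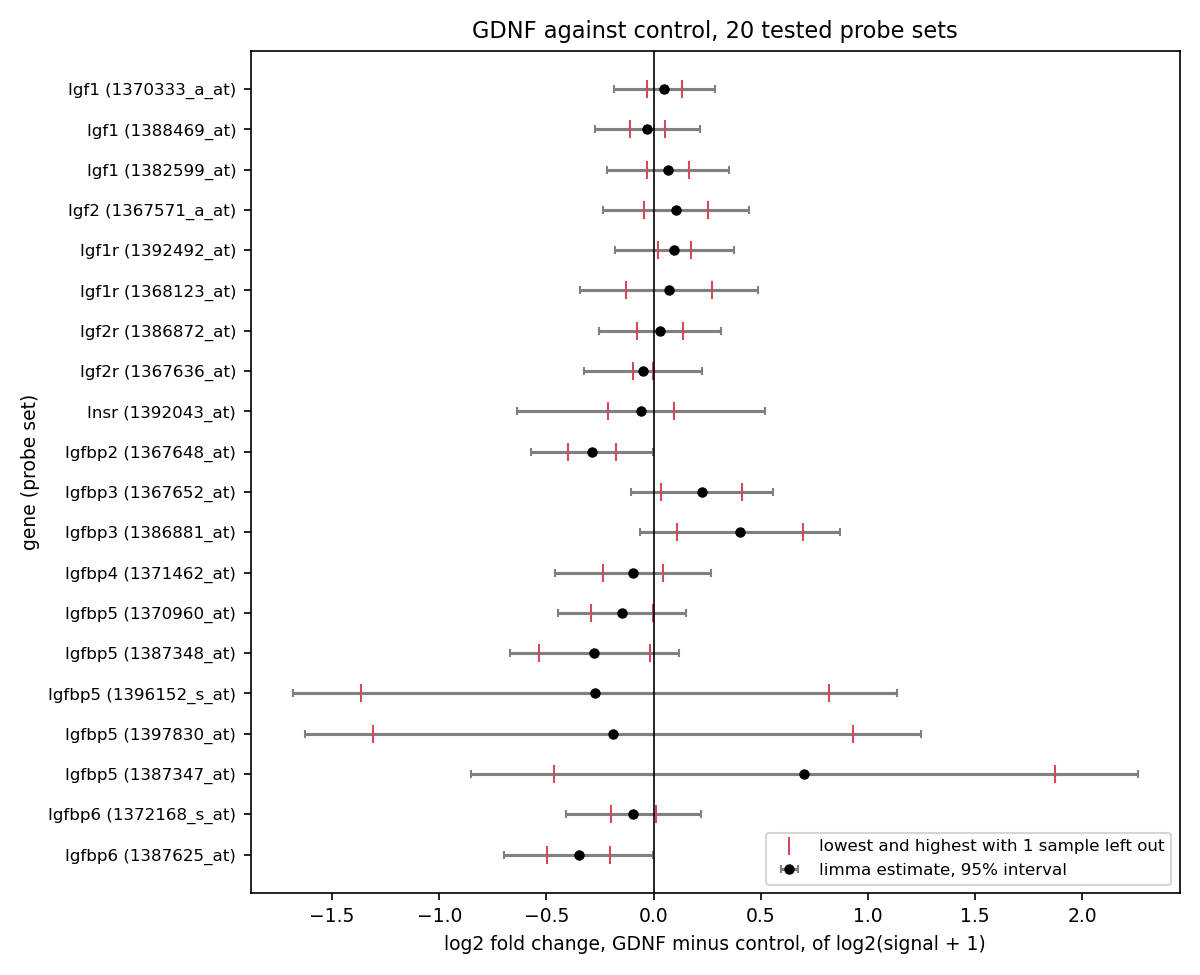
Log2 fold change (GDNF minus control) of the 20 tested IGF system probe sets with the limma 95% interval, and red ticks at the lowest and highest values when 1 sample was left out. Igfbp2 and one Igfbp6 probe set lie below 0 with intervals that end just short of it, both Igfbp3 probe sets lie above 0, and 3 Igfbp5 probe sets have intervals wider than 1 log2 unit on each side.

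Igfbp3, the main carrier of IGFs in the circulation, had higher means in GDNF in both probe sets, and control replicate 1 set most of the difference. The dimmer (1386881_at) had 385.5 and 579 in control and 684 and 570.2 with GDNF. Control replicate 1 stood below the other 3 samples, and control replicate 2 lay between the GDNF samples. The log2 fold change was 0.40 (SE 0.20, 95% interval -0.07 to 0.87, limma adjusted p = 0.999), and it was 0.11 without control replicate 1 and 0.69 without control replicate 2. The brighter (1367652_at) had the same order of samples, with 627 and 814 in control and 862.5 and 808 with GDNF, and its log2 fold change of 0.22 (SE 0.14) was 0.04 without control replicate 1. The oocyte markers, with 7 of 12 measured and all 7 higher in GDNF, were also lowest in that library. They summed to 5748 in control replicate 1, 6996 in control replicate 2, 7445 in GDNF replicate 1 and 9020 in GDNF replicate 2. Blood markers, with 2 of 4 measured, were also lowest in control replicate 1, at 1477. They summed to 1817 in control replicate 2 and to 1818 and 1775 with GDNF. The part of either list in the Igfbp3 values was not tested.

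Igfbp4, a binding protein that restrains IGF action in follicles and is cleaved by the protease PAPP-A, had 152 and 153 in control and 158 and 129.5 with GDNF (1371462_at). The 2 controls agreed closely and the GDNF samples lay on both sides of them. The log2 fold change was -0.09 (SE 0.15, 95% interval -0.46 to 0.27).

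Igfbp5, a binding protein known from granulosa cells of follicles that degenerate and from the surface epithelium, had its widest gap between the 2 GDNF samples. Replicate 1 was above replicate 2 in all 5 probe sets in both groups, by a smaller step in control. In 3 of its 5 probe sets GDNF replicate 1 had the highest and GDNF replicate 2 the lowest signal of the 4 arrays. The probe set 1396152_s_at had 736 and 548 in control, then 1120.1 in GDNF replicate 1 and 246 in GDNF replicate 2, 4.55-fold apart. The probe set 1397830_at had 389.8 and 326 in control and 682 and 143 in the GDNF samples, 4.76-fold apart. Both carry the same source accession in the annotation and need not be independent reports. The dim probe set 1387347_at had 44.1 and 34.1 in control and 145 and 27.8 in the GDNF samples, 5.21-fold apart.

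The 2 brighter Igfbp5 probe sets did not show that gap. The brightest (1370960_at) had 4420.2 and 3832 in control and 4103 and 3365.5 with GDNF, 1.22-fold apart in GDNF and overlapping the controls. The next (1387348_at) had 983 and 961 in control, 959.6 in GDNF replicate 1, beside the controls, and 671 in GDNF replicate 2, well below them. GDNF replicate 2 was thus the lowest array in all 5 probe sets, while the high values of GDNF replicate 1 were limited to 3 of them. With this spread the group differences were -0.15 (SE 0.13) and -0.28 (SE 0.17) in the brighter probe sets, and -0.27 (SE 0.60), -0.19 (SE 0.61) and 0.70 (SE 0.66) in the other 3. Leaving out 1 GDNF sample moved 1397830_at from -1.31 to 0.93 and 1396152_s_at from -1.36 to 0.82, so no group difference can be read from them. The dim probe set, 1387347_at, was the 1 IGF system probe set whose mean change was past 1.5-fold, as were 1.44% of all probe sets, and it overlapped. None of the 20 was both past 1.5-fold and free of overlap, against 1.07% of all probe sets.

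Differences of this size between the GDNF samples were rare on these arrays. Of the 18625 probe sets, 38 (0.204%) were at least 4-fold apart on the log2(signal + 1) scale, 34 of them higher in GDNF replicate 1. Of the 38, 3 were Igfbp5 and another 3 were Plet1, and those with a symbol came from 25 genes. In all 38 the control samples differed in the same direction by replicate number. Over all probe sets, the control samples were that far apart in 12. Beside this, GDNF replicate 1 had the lowest 3' to 5' ratio for Actb, 2.62, and for Gapdh, 1.11, where GDNF replicate 2 had 3.61 and 1.44. Leukocyte markers, with all 7 measured, summed to 911 in GDNF replicate 1 and 676 in GDNF replicate 2, against 860 and 726 in control. Most of that sum was Cd14, with 590 and 407 in the GDNF samples and 485 and 417 in control. Every other leukocyte marker was lower in GDNF replicate 1 than in control replicate 1. Fat markers, with 7 of 8 measured and only Fabp4 and Lpl above the filter, summed to 218 and 140 in the GDNF samples and 289 and 154 in control. Granulosa markers, with all 10 measured, summed to 5667 and 5076.5 in the GDNF samples and 5403 and 4822 in control, and surface epithelium markers to 6805 and 6302 in the GDNF samples. The largest surface epithelium signal was Krt19, with 3365 and 3236 in the GDNF samples. Krt18 had 293 and 159 there, Krt8 666 and 489, and Upk1b 219 and 155. In control, too, replicate 1 was the higher in each of these. Wt1 and Lgals7 were instead lower in GDNF replicate 1 than in GDNF replicate 2. The part of RNA quality or of any cell type in the Igfbp5 values was not tested.

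**Figure D3:**
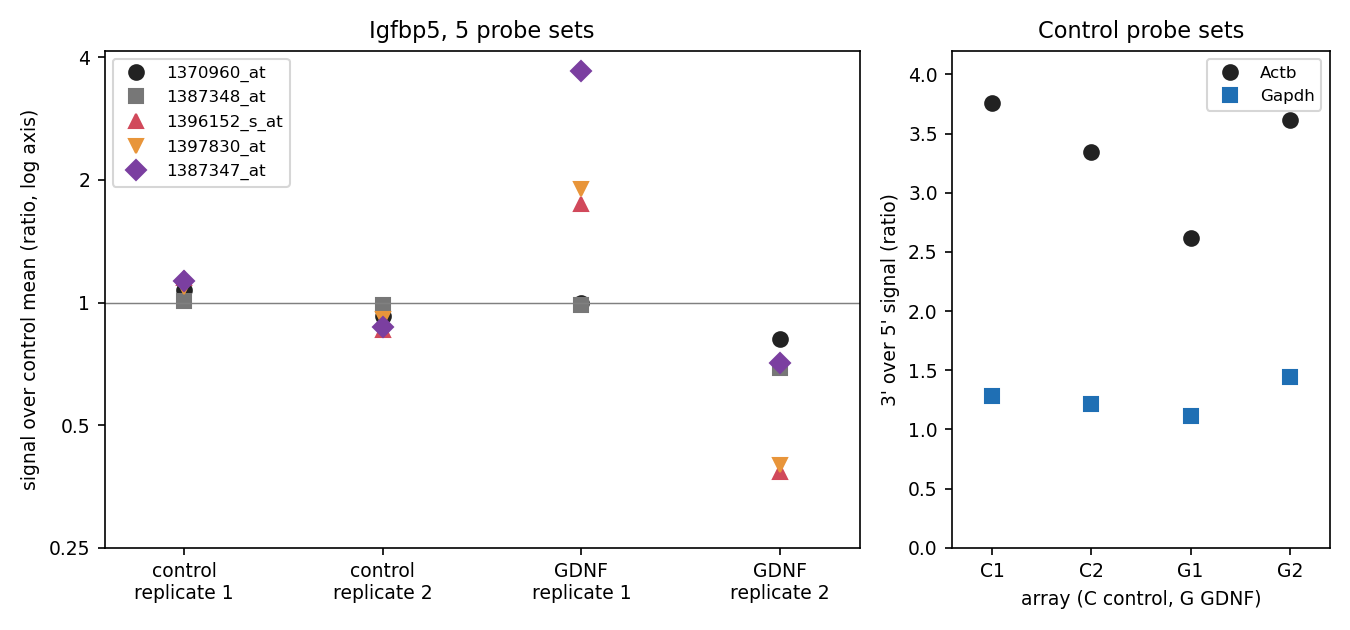
Left, signal of the 5 Igfbp5 probe sets on each array divided by the mean of the 2 control arrays (log axis). In GDNF replicate 1 the probe sets reach from 0.99 to 3.70 times the control mean, while all 5 are below it in GDNF replicate 2. Right, ratio of the 3' to the 5' control probe set of Actb and Gapdh on the same arrays, lowest in GDNF replicate 1.

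The other genes of the pathway were taken from 5 lists, using the brightest tested probe set of each gene, and none of their genes passed an adjusted p of 0.05. Among other binding and carrier proteins 4 of 9 genes passed the filter, all 4 with a higher mean in GDNF and a median log2 fold change of 0.25. Of the 4, 3 were higher without overlap, against 13.4% of all probe sets. The lists were chosen with earlier results of these data known, so this comparison is a description and not a test. Ccn2, a secreted matrix protein with an IGF-binding-like domain, had 488 and 523 in control and 623 and 809 with GDNF (0.49, SE 0.14). Igfbp7, a relative of the binding proteins with low affinity for IGFs, had 1319 and 1394 in control and 1625 and 1518 with GDNF (0.21, SE 0.10). Both GDNF samples lay above both controls in each. Igsf1 (0.28, SE 0.23) was dim, and its other tested probe set had -0.06. Ccn3 had 0.06 (SE 0.18) with overlap. Igfbp1, the binding protein gene that insulin represses in liver, was below the filter at 2.9 to 11.7.

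Among proteases that cut the binding proteins, and their inhibitors, 10 of 17 genes were tested, 6 with a higher and 4 with a lower mean (median 0.05). Stc1, stanniocalcin 1, whose product inhibits the protease PAPP-A, had 1524 and 1048 in control and 787 and 934 with GDNF, with no overlap (-0.56, SE 0.18, limma adjusted p = 0.999). Pappa itself is not analysed here. Plau, the urokinase gene, had 0.41 (SE 0.33) and Adam9 0.39 (SE 0.49), both dim, both overlapping, and both highest in GDNF replicate 1. Adamts1 was the second lowest at -0.07 (SE 0.15).

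Docking, adaptor and feedback proteins of the receptors split evenly, with 7 higher and 7 lower among 14 tested of 23 listed (median -0.00012). Grb14, an adaptor that inhibits the insulin receptor kinase, had 160 and 177 in control and 207 and 226 with GDNF, with no overlap (0.36, SE 0.14, and 0.29 to 0.44 with each sample left out). Igf2bp2, an RNA-binding protein of the IGF2 transcript, had 0.29 (SE 0.18) with overlap, and 0.14 in its other tested probe set. Shc1, an adaptor to the Ras pathway, had 550 and 543 in control and 455.5 and 489 with GDNF (-0.21, SE 0.11), and the docking protein gene Irs2 had 78.1 and 70.9 in control and 70.0 and 62.3 with GDNF (-0.17, SE 0.18). Irs1 was below the filter at 14.4 to 17.9.

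The PI3K branch downstream of the receptors had 5 genes higher and 10 lower among 15 tested of 18 listed (median -0.03). Foxo1, a transcription factor that insulin signalling keeps out of the nucleus, was highest at 0.67 (SE 0.35), with 99.7 and 76.7 in control and 209.5 and 93.5 with GDNF. Those groups overlapped, and without GDNF replicate 1 the value was 0.095. Pik3r1, a regulatory subunit of PI3K, had 0.35 (SE 0.37), and Foxo3 (-0.19, SE 0.14) and Tsc1, an inhibitor of mTOR signalling (-0.18, SE 0.15), were lowest, all with overlap.

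Imprinted growth genes had 3 higher and 5 lower among 8 tested of 10 listed (median -0.08). Dlk1, an imprinted membrane protein of fetal tissues, had 79.1 and 57.5 in control and 57.0 and 50.9 with GDNF (-0.32, SE 0.22). The groups did not overlap, by less than 1 signal unit. Plagl1, an imprinted zinc finger gene, had 348 and 188.5 in control and 317 and 153 with GDNF, lower in both samples numbered 2 (-0.22, SE 0.38). Besides H19, the highest was Dcn, the proteoglycan decorin, at 0.07 (SE 0.09).

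**Figure D4:**
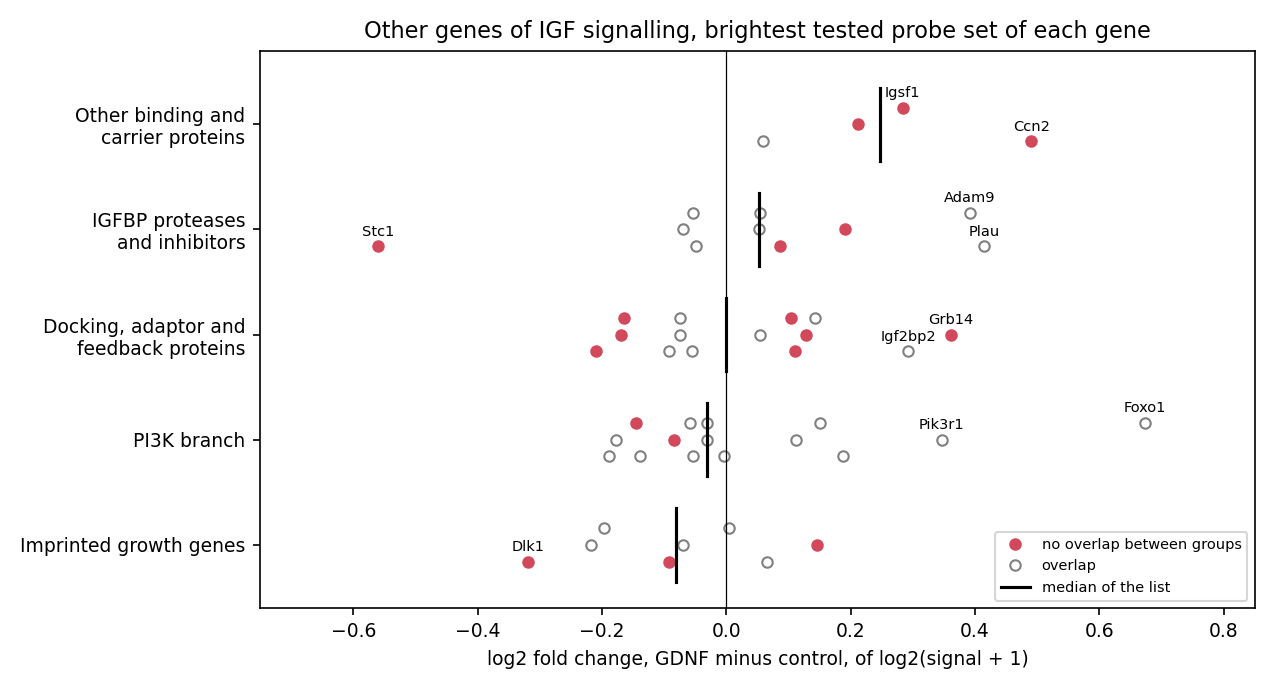
Log2 fold change (GDNF minus control) of each tested gene of the 5 pathway lists, filled where the 2 groups did not overlap, with the list's median as a bar. The medians lie between -0.08 and 0.25, Ccn2 and Stc1 are the filled points farthest from 0, and Foxo1 is the farthest open point.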

How the data were processed

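The deposited values are linear array intensities that the authors computed with MAS5, per the submitters' processing notes (version not given in the sources used here). MAS5 subtracts a mismatch estimate, which makes dim signals noisy, and scales every array alike. After trimming 2% at each end, all 4 array means were 125.03 to 125.04, so a change in total RNA cannot be seen. The number of arrays limits precision.

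After leaving out 57 control probe sets, 31042 of 31099 remained. Of these, 20826 had 1 symbol in GEO's platform annotation, 436 several and 9780 none. The 10 members' Entrez identifiers all matched RefSeq (GRCr8). Signals were taken as log2(signal + 1), the 18625 probe sets at or above the 40th percentile of the mean (signal 21.4) were kept, and groups were compared two-sided with limma 3.58.1 in R 4.3.3 (lmFit, eBayes with trend, Benjamini-Hochberg over all probe sets, threshold 0.05). An exact permutation test of 2 against 2 cannot go below 0.333. The fit was also run on simulated data with samples drawn independently, so that run does not cover samples that deviate together by replicate number. Members and lists were chosen with earlier results of these data known.

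Named genes were the 10 members with every probe set, and of each pathway list the 2 highest and 2 lowest genes plus any without overlap and past 1.5-fold; H19, Igfbp1, Irs1 and the tissue markers are named as context. Fat, endothelium, blood and theca lists were also summed: they had 0, 0, 2 and 3 genes with a higher and 2, 5, 0 and 2 with a lower mean. Alternatives were the pseudocount, filter, normalization, trend, replicate block and each sample left out.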

Additional observations from a re-analysis of the deposited data

How the results depend on the processing

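No IGF system probe set passed the adjusted threshold under any setting tried; the smallest adjusted p was 0.0744, for Igfbp5 without GDNF replicate 1, a fit that assumes the lone GDNF sample varies like the controls. With the replicate number as a block, 8 of all probe sets were called and 0 of the IGF system, where the smallest adjusted p was 0.438. At an unadjusted limma p under 0.05 that fit had 5 of 20 IGF system probe sets against 7.28% of all. The fit without the block had 2 of 20 and 2.73%. The 5 did not share a direction. Igfbp3 1386881_at and Igfbp5 1387347_at were higher with GDNF, while Igfbp2, Igfbp6 1387625_at and Igfbp5 1387348_at were lower. The other Igfbp3 and Igfbp6 probe sets were not among them. Samples with the same number deviated together (r = 0.32 across probe sets), but no label states what the number stands for and 2 pairs cannot settle it. The count of IGF system probe sets without overlap was 4 of 20 with all samples and 7 to 17 with 1 sample left out. Over all 18625 probe sets it was 5592 with all samples and 10251 to 13653 with 1 left out. Fewer samples overlap less by construction. The median log2 fold change of the 20 ran from -0.12 to 0.067 with 1 sample left out.

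Under the other settings all 118 values kept their direction. The filter settings and the replicate block leave a log2 fold change as it is, so their values could not turn. Only the pseudocount and normalization settings could have changed a direction. At the 60th percentile filter, 2 probe sets (Insr 1392043_at and Igfbp5 1387347_at) fell below it. With 1 sample left out, 12 probe sets changed direction. Their ranges were -0.031 to 0.13, -0.11 to 0.052 and -0.032 to 0.17 for Igf1, -0.047 to 0.26 for Igf2, -0.13 to 0.27 for Igf1r (1368123_at), -0.078 to 0.14 for Igf2r (1386872_at) and -0.21 to 0.097 for Insr. They were -0.24 to 0.046 for Igfbp4, -0.20 to 0.0096 for Igfbp6 (1372168_s_at), and -1.36 to 0.82, -1.31 to 0.93 and -0.47 to 1.87 for Igfbp5. The cause was not tested.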
